A study of Bos taurus with 6 samples.

Results

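Vanins are pantetheinases, enzymes that cleave pantetheine, a breakdown product of coenzyme A (CoA), into pantothenate (vitamin B5) and cysteamine. CoA is rebuilt from pantothenate. Pantothenate kinases (PANK) carry out the first and rate-limiting step, phosphopantothenoylcysteine synthetase (PPCS) adds cysteine, and the bifunctional CoA synthase (COASY) completes the molecule, while CoA itself carries the acyl groups used in fatty acid oxidation, in sterol synthesis and in the mitochondrial supply of acetyl groups. VNN1 and VNN2 are neighbouring paralogues whose proteins are held at the cell surface, and VNN2 is known in cattle as a gene that responds to luteinizing hormone in the follicle. Of the 8 genes examined, VNN1, VNN2, PANK1, PANK2, PANK3, PANK4, PPCS and COASY, 7 had a row with that gene symbol in the deposited table, each with 1 transcript cluster (a probe group that the array summarizes as a gene), out of 26773 transcript clusters in all. No row carried the symbol PANK2, and PANK2 was not analysed here.

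The measurements came from 6 cultures of primary bovine granulosa cells (GC), 3 from normal and 3 from high plating density, each on its own Bovine Gene 1.0 ST Array. Culture lasted 9 days in serum-free alpha-MEM, a medium that itself supplies pantothenate, and every culture received FSH, IGF-1 and androstenedione, so the plating density was the only stated difference. The cells were pooled from small to medium follicles of many abattoir ovaries from cows of undefined cycle stage, and the methods name 6 GC preparations for the arrays. Neither the methods nor the labels say whether a preparation was plated at both densities, and the p-values measure the spread between these cultures.

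The deposited values are log2 signals made by the authors with the RMA procedure, and array medians lay between 4.34 and 4.43. The 95th percentile of the 82 reporter control rows, 4.62, was used as the background level. A transcript cluster is termed called when its fold change (FC) between densities exceeded 1.5 and its p-value and FDR, from limma's moderated test adjusted over the whole table, were below 0.05. Called transcript clusters made up 7.49% of the table, 3.97% as rises and 3.51% as falls. Changes are log2 signals at high minus normal density with their standard error (SE). In RNA from whole cultures, fewer cells with a transcript and less of it per cell cannot be told apart. All 10 granulosa cell markers had a group mean above the background level. Of these markers 5 were called, all as falls (CYP19A1, FSHR, INHA, INHBA and FOXL2). The steroidogenic genes CYP11A1 and HSD3B1, with signals between 10.9 and 11.5 in every culture, and the transcription factor gene NR5A2 changed by 0.26, −0.28 and 0.41 (limma's adjusted p = 0.0294, 0.0234 and 0.00482), below the FC threshold, and GATM and AMH did not pass the FDR.

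At high density VNN2 rose and VNN1 fell, and the pantothenate kinases PANK3 and PANK1 rose by smaller amounts. PANK4, PPCS and COASY were not called. The 4 called genes of 7 were 3 rises and 1 fall, to be read against the 7.49% of the whole table, and the median change of the 7 genes was 0.34 against 0.02 for all transcript clusters. In 6 of the 7 genes the cultures of one density did not overlap with those of the other, as was the case for 37.3% of the table.

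**Figure D1:**
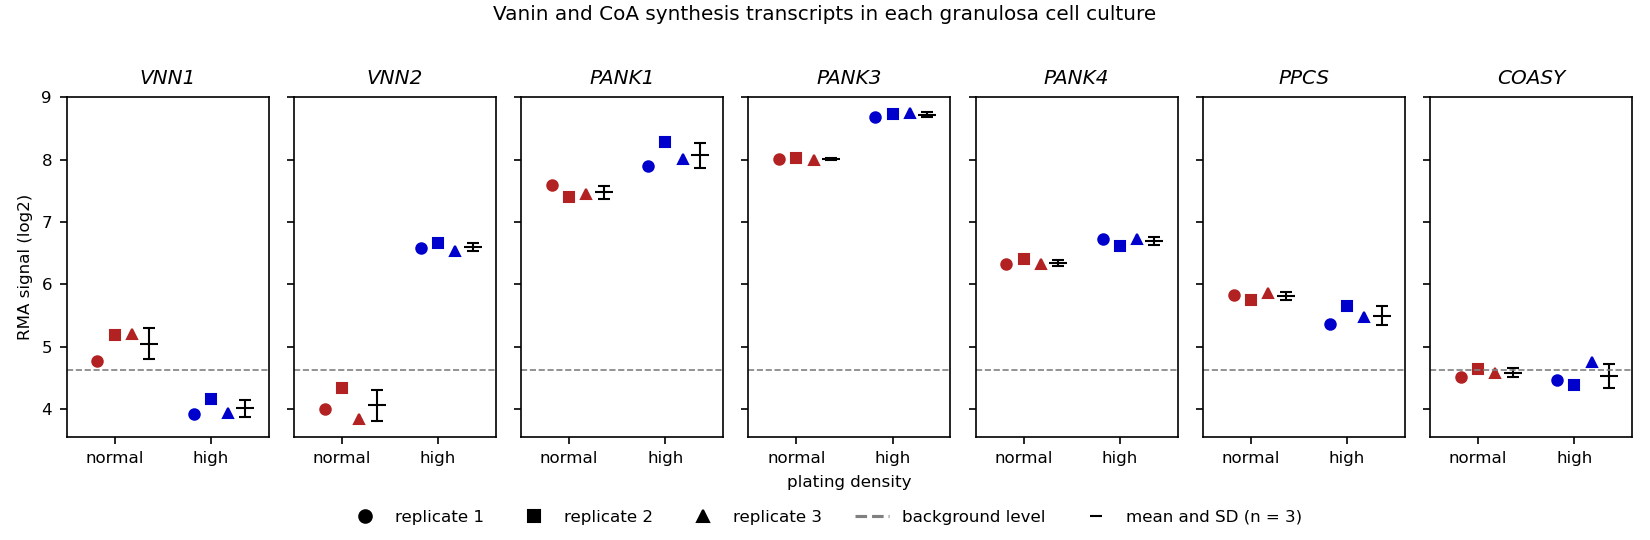
RMA signals (log2, vertical axis) of the 7 genes in each culture at normal (red) and high (blue) plating density, with the symbol shape giving the replicate number, black bars the mean and SD of 3 cultures, and the dashed line the background level of 4.62. VNN1 lies above the dashed line only at normal density and VNN2 only at high density, and COASY lies around it at both densities.

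VNN2 (transcript cluster 12900969), which encodes the vanin known in humans from the surface of leukocytes, had signals of 4.00, 4.34 and 3.84 in normal density replicates 1, 2 and 3. At high density the signals were 6.58, 6.67 and 6.54. All normal density cultures were below the background level and all high density cultures were above it, with a wide gap between the groups. The means were 4.06 ± 0.25 and 6.60 ± 0.07 (SD, n = 3 each), a log2 change of 2.54 (SE 0.13, limma's adjusted p = 3.52e-05). Because the normal density signals had no measurable level above background, the rise is a lower bound, and VNN2 was at least 3.94-fold higher at high density when the background level stood in for them.

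Of the vanin and CoA synthesis genes, VNN2 is the one that the study also measured by qPCR, with oligos designed on the transcript NM_001163920. They are shown, in lower case from 5′ to 3′, since they define the VNN2 transcript apart from the array, whose row is assigned to the transcript ENSBTAT00000021759. The qPCR values were not analysed here.
VNN2 forward: tcccacagcttggatgaacgttttg
VNN2 reverse: taggcactccaattcatggctggtg

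VNN1 (transcript cluster 12900682, NM_001024556), the vanin best known from liver, kidney and gut epithelium, moved the other way. Its signals were 4.77, 5.19 and 5.20 at normal density and 3.92, 4.17 and 3.94 at high density. The normal density cultures were all above the background level, replicate 1 only narrowly, and the high density cultures were all below it. The means were 5.05 ± 0.25 and 4.01 ± 0.14 (SD, n = 3 each), a log2 change of −1.04 (SE 0.13, limma's adjusted p = 0.00191). With the background level in place of the high density signals, VNN1 was at least 1.35-fold higher at normal density, a bound under the FC threshold.

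The difference between both vanins was also taken within each array. The VNN2 signal minus the VNN1 signal was −0.77, −0.85 and −1.36 in the normal density cultures and 2.66, 2.50 and 2.60 in the high density cultures. Since VNN2 at normal and VNN1 at high density lay below the background level, the shift of 3.58 between the densities is not a measured size. With these signals raised to the background level, a setting chosen after seeing the data, the shift was at least 2.41, and the groups did not overlap. With 3 cultures per group the smallest two-sided p of an exact permutation test is 0.1, and the signals as deposited reached it (p = 0.1, adjusted p = 0.2 over the 4 pairs of paralogues compared).

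The genes around the vanins were examined as a list taken from the RefSeq annotation of ARS-UCD2.0, with 5 genes on each side of the VNN1 and VNN2 locus. Of these 10 genes, 5 had a row in the table. Of these, 0 were called by limma or by the methods' t-test, beside 7.49% of the table. RPS12 alone had an unadjusted p below 0.05. SLC18B1, a polyamine transporter gene and the nearest protein-coding gene beyond VNN2, had a log2 change of −0.20 (SE 0.12), and the ribosomal protein gene RPS12 one of −0.32 (SE 0.11, limma's adjusted p = 0.0900). TAAR1, a trace amine receptor gene directly beyond VNN1, had signals between 1.55 and 1.84, far below the background level at both densities. TAAR2 and TAAR5 were also below that level in every culture, so a change in these receptor genes was hardly detectable.

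PANK3 (transcript cluster 12787282, NM_001075463), a cytosolic pantothenate kinase, had the most uniform signals of the 7 genes. They were 8.008, 8.022 and 8.003 at normal density and 8.681, 8.738 and 8.753 at high density. The groups were well separated and all cultures lay far above the background level. The means were 8.01 ± 0.01 and 8.72 ± 0.04 (SD, n = 3 each), with a log2 change of 0.71 (SE 0.06, limma's adjusted p = 3.89e-04), an FC of 1.64.

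PANK1 (transcript cluster 12822811, XM_002703169), the kinase linked to PPAR alpha control of fatty acid oxidation in liver, had signals of 7.60, 7.40 and 7.44 at normal density. The high density signals were 7.90, 8.29 and 8.01, with replicate 2 the highest and no overlap between groups. The means of 7.48 ± 0.10 and 8.07 ± 0.20 (SD, n = 3 each) gave a log2 change of 0.59 (SE 0.11, limma's adjusted p = 0.0109). The FC was 1.505 and lay just above the threshold of 1.5, so the call depended on single cultures. Without high density replicate 2 the log2 change was 0.48, without normal density replicate 2 it was 0.55 and without normal density replicate 3 it was 0.57, and PANK1 was then not called. The methods' t-test did not call it either (adjusted p = 0.0655).

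PANK4 (transcript cluster 12735588, NM_001083429), a family member regarded as lacking pantothenate kinase activity in mammals, had signals of 6.32, 6.41 and 6.32 at normal density and 6.72, 6.62 and 6.74 at high density. The groups did not overlap. Its log2 change of 0.34 (SE 0.07, limma's adjusted p = 0.0137) passed the FDR but stayed below the FC threshold, at an FC of 1.27. A change of any size at this FDR was found in 19.1% of the table.

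The changes of the PANK genes were compared with each other in the same within-array way. The difference of PANK3 and PANK4 signals shifted by 0.37, from 1.66 ± 0.04 to 2.03 ± 0.08 (SD, n = 3 each), without overlap of the groups (exact permutation test, two-sided, p = 0.1, adjusted p = 0.2). For PANK1 and PANK4 the shift was 0.25 (exact permutation test, p = 0.2, adjusted p = 0.267), and for PANK1 against PANK3 it was −0.12 (exact permutation test, p = 0.3). In both of the latter pairs the cultures of the densities overlapped, so an order of PANK1 relative to PANK3 or PANK4 was not resolved with 3 cultures per density.

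In the same annotation, the microRNA genes MIR107, MIR103-1 and MIR103-2 lie within the gene spans of PANK1, PANK3 and PANK2, respectively. Each had a row of its own. MIR107 had signals of 3.56, 3.68 and 3.48 at normal density and 3.78, 3.98 and 3.99 at high density, a log2 change of 0.34 (SE 0.09, limma's adjusted p = 0.0372), without overlap of the groups and below the FC threshold. MIR103-1 changed by 0.20 (SE 0.07, limma's adjusted p = 0.0769) and MIR103-2 by −0.14 (SE 0.13, limma's adjusted p = 0.533). All of these signals were below the background level at both densities, and the rows are annotated to the microRNA genes, not to mature microRNAs.

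PPCS (transcript cluster 12846879, NM_001102228), which couples phosphopantothenate with cysteine, had signals of 5.83, 5.75 and 5.87 at normal density and 5.36, 5.66 and 5.48 at high density. All high density cultures were lower than all normal density cultures, with replicate 2 the nearest to them. The log2 change was −0.32 (SE 0.09, 95% interval −0.53 to −0.10) with limma's adjusted p = 0.0528. It was −0.40 with an adjusted p of 0.0124 by limma without high density replicate 2, but below the FC threshold there as well.

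COASY (transcript cluster 12765314, BC146136) had signals of 4.52, 4.65 and 4.59 at normal density and 4.47, 4.38 and 4.75 at high density. The groups overlapped, and both means were at or below the background level, so a change in COASY was not detectable on these arrays (log2 change −0.05, SE 0.11, 95% interval −0.30 to 0.20).

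High density replicate 2 was the culture farthest from the median of its group in 5 of the 7 genes. At normal density it was replicate 2 in 4 genes and replicate 1 in 3 genes. In each group of 3 cultures 1 is always the farthest, and the share over the whole table was not computed. VNN2, VNN1 and PANK3 were called with each culture left out in turn, with log2 changes between 2.43 and 2.68 for VNN2, between −1.18 and −0.97 for VNN1 and between 0.70 and 0.73 for PANK3.

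**Figure D2:**
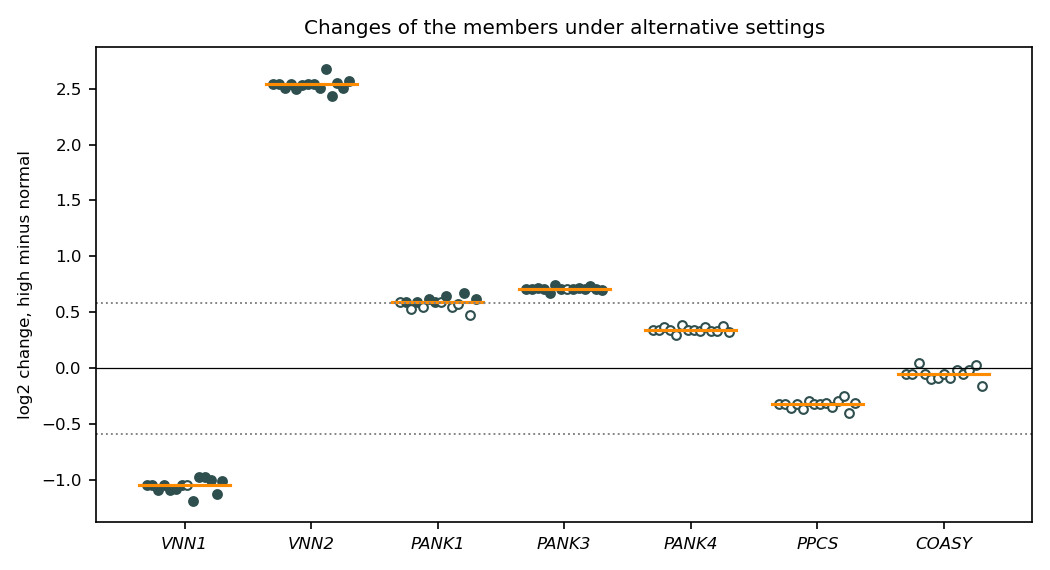
Log2 change (vertical axis, high minus normal density) of each of the 7 genes under the alternative settings (points, filled when called and open when not) beside the value reported (orange line), with dotted lines at the FC threshold of 1.5 in either direction. The 14 points of VNN2 are all filled, those of PANK1 lie across the threshold with 7 of 14 filled, and those of PANK4, PPCS and COASY are all open.

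Other genes of pantothenate supply and CoA synthesis were followed as a list of 7 genes. Of these, 6 had a row and 1 was called, beside 7.49% of the table. The called gene was SLC5A6, which encodes the sodium-dependent multivitamin transporter for pantothenate and biotin. Its signals rose from 5.69, 5.57 and 5.46 at normal density to 6.41, 6.33 and 6.36 at high density, a log2 change of 0.79 (SE 0.08, limma's adjusted p = 6.93e-04). SLC5A6 was called as a rise, as were PANK3 and PANK1 among the members, beside 3.97% of the table. This grouping was made after the results were seen. It leaves out the vanins, of which VNN1 was called as a fall. The PANK1 call held in only 7 of 14 alternative settings. The other 5 genes of this list with a row were not called, nor were PANK4, PPCS and COASY. PPCDC, the decarboxylase between PPCS and COASY, had a log2 change of 0.07 (SE 0.12) with signals between 3.94 and 4.44, below the background level in every culture. The dephospho-CoA kinase gene DCAKD changed by −0.10 (SE 0.09), and BTD, the biotinidase of the same protein family as the vanins, by −0.06 (SE 0.09). AASDHPPT, which transfers phosphopantetheine from CoA to acyl carrier proteins, had a log2 change of −0.30 (SE 0.15, limma's adjusted p = 0.225), and AASDH one of −0.43 (SE 0.13, limma's adjusted p = 0.0523). The median of the list was −0.08.

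Among 9 genes of CoA breakdown and transport, 1 was called, beside 7.49% of the table. ENPP1, an ectoenzyme that hydrolyses nucleotide pyrophosphates, CoA included, rose from 6.63, 6.61 and 6.61 to 7.13, 7.35 and 7.36 (log2 change 0.66, SE 0.08, limma's adjusted p = 0.00156). The densities did not overlap for ENPP1. SLC25A17, the peroxisomal carrier of CoA, had a log2 change of −0.31 (SE 0.07, limma's adjusted p = 0.0176) and stayed under the FC threshold. NUDT7, a peroxisomal CoA diphosphatase, changed by −0.26 (SE 0.08, limma's adjusted p = 0.0627). The mitochondrial carriers SLC25A16 and SLC25A42 changed by 0.20 (SE 0.20) and −0.04 (SE 0.10) and had overlapping groups, and the list median was −0.04.

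Cysteamine, the other product of vanins, is oxidized to hypotaurine and on to taurine. Of 8 genes listed for this route, 7 had a row and 1 was called, beside 7.49% of the table. The called gene was the taurine transporter gene SLC6A6. Its signals were 5.74, 5.73 and 5.77 at normal density and 4.43, 4.57 and 4.25 at high density, which is below the background level (log2 change −1.33, SE 0.09, limma's adjusted p = 1.36e-04). With the background level in place of these signals, SLC6A6 was at least 2.18-fold higher at normal density. The cysteamine dioxygenase gene ADO changed by 0.12 (SE 0.08, limma's adjusted p = 0.382). CDO1, which oxidizes cysteine and feeds the same route, had a log2 change of 0.45 (SE 0.09, limma's adjusted p = 0.0129) with an FC under the threshold and with no overlap of its groups. CSAD, the decarboxylase that follows CDO1, changed by −0.24 (SE 0.10, limma's adjusted p = 0.143). GADL1, FMO1 and GAD1 had signals below the background level in every culture, and the median of the list was 0.09.

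VNN1 and PANK1 are known PPAR alpha targets in liver, and PPAR receptors and target genes formed a further list of 14 genes, all with a row. Of these, 4 were called, 2 as rises and 2 as falls, beside 7.49% of the table, and the median was −0.24. An FDR below 0.05 at any fold was found for 8 of the 14 genes, beside 19.1% of the table. ANGPTL4, an inhibitor of lipoprotein lipase, rose by 1.46 (SE 0.11, limma's adjusted p = 1.84e-04), from between 4.80 and 5.11 to between 6.25 and 6.55. FABP3, a fatty acid binding protein gene, rose by 0.86 (SE 0.06, limma's adjusted p = 1.72e-04). CPT1A, which commits long-chain fatty acids to mitochondrial oxidation, fell by 1.15 on the log2 scale (SE 0.11, limma's adjusted p = 4.44e-04), and EHHADH, a peroxisomal oxidation enzyme, fell by 0.88 (SE 0.11, limma's adjusted p = 0.00181), to signals below the background level. Against that level EHHADH was at least 1.41-fold higher at normal density, a bound under the FC threshold. The receptor genes PPARA and PPARG had log2 changes of −0.48 (SE 0.09, limma's adjusted p = 0.00903) and −0.47 (SE 0.10, limma's adjusted p = 0.0165). Both passed the FDR without overlap of the groups but stayed below the FC threshold. PPARD changed by 0.01 (SE 0.07).

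**Figure D3:**
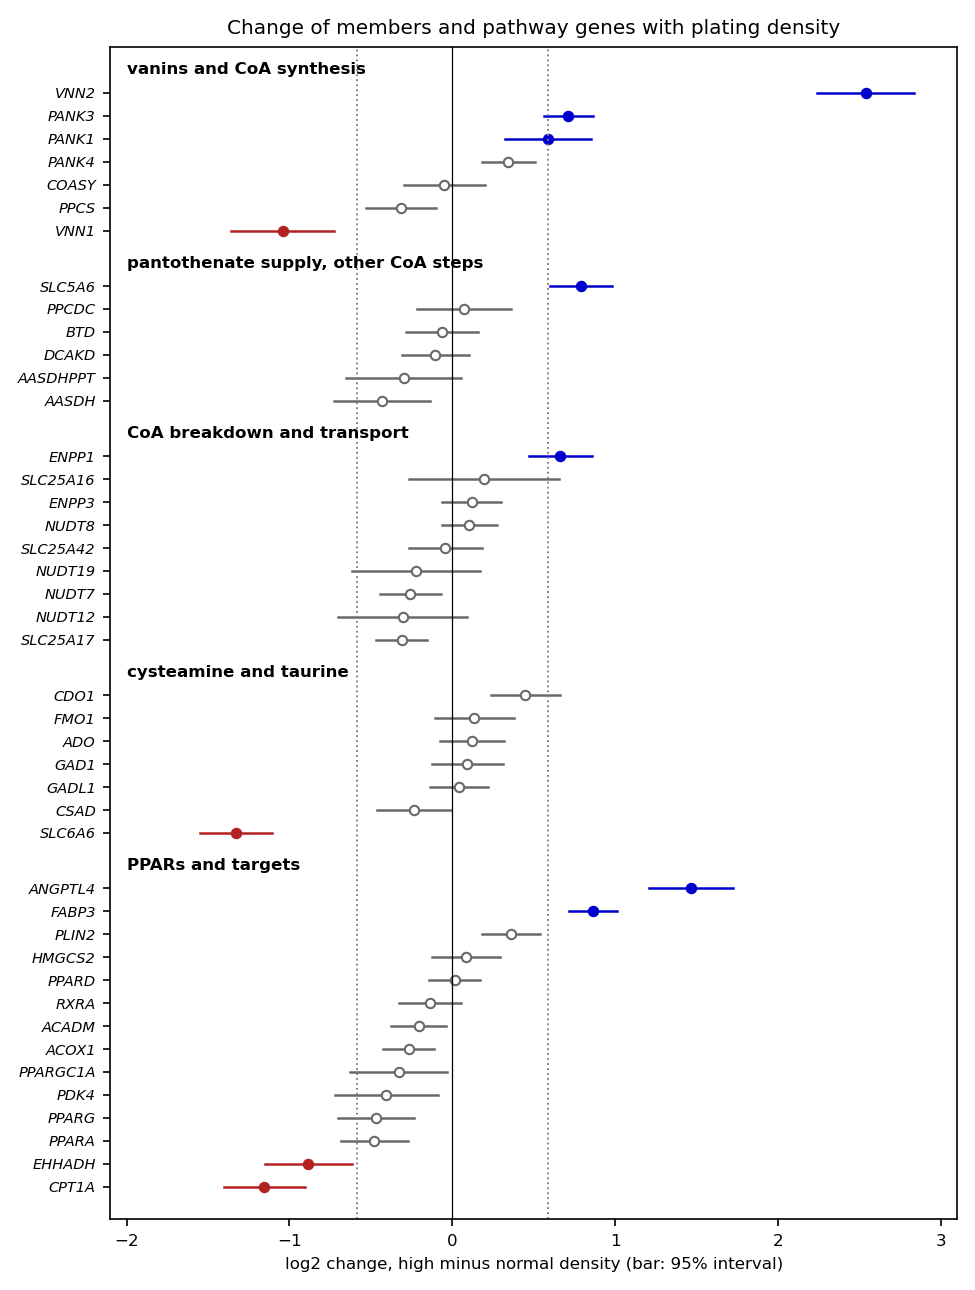
Log2 change at high minus normal density (horizontal axis) with its 95% interval for the 7 genes and for the pathway lists, with dotted lines at the FC threshold of 1.5 in either direction, filled points for called genes (blue for rises, red for falls) and open points for genes not called. The rise of VNN2, 2.54, starts below the background level at normal density. The falls of VNN1, −1.04, SLC6A6, −1.33, and EHHADH, −0.88, end below the background level at high density. Most genes of the CoA lists lie between the dotted lines.

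Over all pathway lists, 7 of 39 genes with a row were called, 4 as rises and 3 as falls, beside 7.49% of the table. These lists were not tested as sets.

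VNN2 is also known from leukocytes, so markers of other cells were examined beside the vanins. Of 11 leukocyte markers, 0 were called by limma or by the methods' t-test, 3 had an unadjusted p below 0.05, and all 11 had both group means at or below the background level. The summed leukocyte marker level was between 6.61 and 6.68 at normal and between 6.59 and 6.85 at high density on the log2 scale. The 3 markers with an unadjusted p below 0.05 went in both directions. PTPRC, which defines leukocytes, had a log2 change of −0.22 (SE 0.09). CD14 had one of 0.41 (SE 0.12, limma's adjusted p = 0.0553) and S100A9 one of 0.33 (SE 0.14, limma's adjusted p = 0.148). Without high density replicate 2, CD14 changed by 0.56 and S100A9 by 0.47 (limma's adjusted p = 0.00202 and 0.0292), both still below the FC threshold. S100A8, an abundant neutrophil gene, changed by 0.00 (SE 0.07). Among 6 theca markers INSL3 was called as a rise (log2 change 1.82, SE 0.09), while the theca enzyme gene CYP17A1 was below the background level at both densities. PTCH1, above the background level in every culture, changed by 0.31 (SE 0.07), and OGN, below it in every culture, by −0.52 (SE 0.11). Both passed the FDR but not the FC threshold (limma's adjusted p = 0.0284 and 0.0171). Among 8 endothelial markers CLDN5 was called as a rise (log2 change 2.81, SE 0.13), and PECAM1 and CDH5, which define these cells, were below the background level. VWF, above the background level in every culture, changed by 0.31 (SE 0.09, limma's adjusted p = 0.0572). KDR and TEK, below it in every culture, changed by 0.48 (SE 0.12) and −0.36 (SE 0.09). Both passed the FDR but not the FC threshold (limma's adjusted p = 0.0275 and 0.0303). The medians of both lists were 0.05. Their summed levels went from between 8.31 and 8.44 to between 9.39 and 9.61 for the theca list and from between 6.83 and 6.87 to between 8.06 and 8.25 for the endothelial list. Without INSL3 the theca sum was between 7.45 and 7.60 at normal and between 7.55 and 7.62 at high density, and without CLDN5 the endothelial sum was between 6.44 and 6.51 and between 6.57 and 6.66. The part of these markers in the vanin changes was not tested. Of 6 red blood cell and 6 surface epithelium markers, 0 were called by limma or by the methods' t-test, beside 7.49% of the table. An unadjusted p below 0.05 was found for 1 in each list (HBB and UPK3B). All 6 red blood cell markers and 4 of the 6 surface epithelium markers had both group means at or below the background level. The red blood cell list did not hold the hemoglobin gene HBA, which the study reported as its top rise.

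The genes whose signals followed the 3 leading members most closely were found from the root mean square difference of mean-centred log2 signals over the 6 cultures. For VNN2 these were LOC100337076 (0.11), KIAA1217 (0.13) and FAM107A (0.13), which rose between 2.39 and 2.64 on the log2 scale. The normal density means of LOC100337076 and KIAA1217, 2.74 and 4.61, were below the background level. For VNN1 they were MASTL (0.06), a transcript cluster naming several histone H2A genes (0.07) and FANCI (0.07), with log2 changes between −1.01 and −0.94. The histone cluster had means of 3.88 at normal and 2.95 at high density, both below the background level. MASTL fell to a mean of 4.05, also below it, so the sizes of these changes are uncertain. For PANK3 they were TMEM97 (0.02), ZNF259 (0.02) and TMTC4 (0.03). The 6 cultures share their density within a group, and this likeness is given as a description only.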

How the data were processed

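RNA from 6 GC cultures was hybridized to Bovine Gene 1.0 ST Arrays. The authors made the deposited log2 signals in Expression Console with RMA (background correction, normalization between arrays and gene-level summary), and no further normalization was applied here. The genome build of the array annotation is not given in the sources used here. The densities were compared on all 26773 rows with R 4.3.3 and limma 3.58.1 (lmFit, then eBayes with 1 prior variance and no covariates), with Benjamini-Hochberg adjustment and the thresholds of the study's methods. The methods' analysis of variance, for 2 groups equal to a t-test, is called the methods' t-test. Scripts were tested on simulated data. Neighbours and microRNA hosts came from the RefSeq gene table of ARS-UCD2.0. For lower bounds, signals below the background level were replaced by it. The genes named are the members, genes of the lists, neighbours and the 3 closest genes by signal for VNN1, VNN2 and PANK3. Members and lists were chosen with earlier results of these data known. Alternatives were the methods' t-test, trend and robust variances, array weights, a replicate block, 2 further scalings, removal of low signals, the treat function of limma and leaving out each culture. The number of arrays limits the precision.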

Additional observations from a re-analysis of the deposited data

How the results depend on the processing

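VNN2 was called in all 14 alternatives. Removal of low signals kept rows with a mean above the background level at either density. VNN2 passed it only through its high density mean and VNN1 only through its normal density mean. That setting is therefore no separate test of their calls. With limma's treat, which tests whether a change exceeds the FC threshold itself, 1 of the 7 genes (VNN2), 3 of the 39 pathway genes (SLC6A6, CPT1A and ANGPTL4) and 529 transcript clusters of the table, against 2005, were called. VNN1 (log2 change −1.04), PANK3 (0.71) and PANK1 (0.59) were not called by treat. The call of PANK1 was also lost with the methods' t-test (0.59), with array weights (0.53) and with arrays shifted to the same median (0.55), and its change was between 0.48 and 0.67 with each culture left out. COASY changed sign with array weights (0.047) and without high density replicate 2 (0.028), and was between −0.157 and 0.028 with each culture left out. The 4 differences between paralogues kept their direction in all alternatives run. The replicate block leaves these differences unchanged by construction and so could not alter a direction. A kept direction does not resolve the order of PANK1 relative to PANK3 or PANK4. With each culture left out, 3 or 4 of the 7 genes, 7 pathway genes and between 1848 and 2434 transcript clusters were called. With a replicate block, 4 of the 7 genes and 2020 transcript clusters were called. Same-numbered cultures deviated with correlations of 0.05, −0.05 and −0.04, and 2 of 6 cultures correlated best with their own number. With 3 cultures per density these values cannot decide whether same-numbered cultures shared a preparation, since other spread between cultures could hide it. Signals near the background level limit the changes of VNN1, VNN2 and COASY.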
